A study of Mus musculus with 6 samples.

Results

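Levels of 38 genes of DNA replication were compared between 3 Rb1L/L and 3 Rb1+/+ cultures of mouse embryonic fibroblasts (MEFs), the connective tissue cells that grow out of minced embryos. The members are the 38 listed genes of the replication fork, of origin firing, of chromatin assembly and of nucleotide synthesis that had a transcript cluster annotated with their symbol alone. They were listed by name, but with earlier results of these data known, and all 38 were found among the 19938 genes named on the array. Per the labels, both genotypes were taken at embryonic day 13.5, kept in the same serum-containing medium to passage 4 and lysed while proliferating. Rb1L/L cultures are homozygous for the L allele of Rb1 and Rb1+/+ cultures carry the unaltered gene. The labels give neither the strain nor whether a culture came from 1 embryo or several. Where nothing says that cultures came from separate embryos, the p-values measure only the spread between these samples.

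Replication begins when origin-bound complexes are fired by kinases and loaded with the helicase activator CDC45-GINS. DNA polymerase alpha-primase lays the primers, polymerases delta and epsilon extend them on the ring-shaped clamp PCNA, which the clamp loader RFC opens, RPA shields the single strands, and FEN1 and ligase join the lagging-strand pieces. Ribonucleotide reductase, thymidylate synthase, thymidine kinase and dUTPase feed the fork, and CAF-1 puts histones on the new DNA. Most of these genes are textbook targets of E2F transcription factors, which the Rb1 product pRb restrains. The L allele is known to alter the pRb cleft that binds LXCXE proteins, and it is described as leaving E2F binding in place.

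Over the 15462 genes tested, Pearson's r ran from 0.9948 to 0.996 for arrays of one genotype and from 0.9873 to 0.9927 for arrays of different genotype. Xist stood at log2 4.79 in Rb1L/L culture 1 and 5.13 in Rb1+/+ culture 1, and between 11.44 and 11.61 in the other 4 cultures, while the Y-linked Eif2s3y was at 8.47 and 8.36 in those same number 1 cultures and at 3.63 or lower elsewhere. The cultures numbered 1 were therefore of male type in both genotypes. Rb1 measured 8.96, 8.85 and 8.99 in Rb1L/L cultures and 8.87, 8.61 and 8.99 in Rb1+/+ cultures, and the altered allele is transcribed, so that its level does not check the labels. The fibroblast genes were bright, their summed signal lying between log2 15.1 and 15.12 in Rb1L/L cultures and between 15.19 and 15.23 in Rb1+/+ cultures. Of these 10 genes 7 had a fold change below 0, and the collagen gene Col3a1 fell by 0.33 (adjusted p = 0.0112). Their part in the members' differences was not tested. Of 9 proliferation markers above the detection floor, 5 rose and none fell (median log2 fold change 0.31), where 7.1% of all tested genes rose and 5.08% fell. The summed signal of these markers was log2 13.7 to 13.78 in Rb1L/L cultures against 13.23 to 13.51 in Rb1+/+ cultures.

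Promoter sequences were looked up because E2F sites are the textbook feature of these genes. RefSeq (GRCm38.p6) gave 37 promoters, each of 250 bases before and 50 after an annotated start, for 32 members. Gins1, Gins2, Gins4, Pole, Prim2 and Rfc2 had no entry. The E2F consensus was searched as the 4 words TTTGGCGC, TTTCCCGC, TTTCGCGC and TTTGCCGC on both strands, and none of the 10 hits in members overlapped another hit or the other words searched. At least 1 word was found for 9 of the 32 members (28.1%), against 4.15% of 12184 tested genes with a promoter and 2.6% of all 27025 genes. The 9 were Cdca7, Hells, Lig1, Orc1, Pola1, Pold1, Pold3, Pole2 and Rfc3. The box CCAAT, bound by NF-Y, was found for 16 of 32 members against 41.5% of tested genes, and the CHR word TTTGAA for 5 of 32 against 14.4%.

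The 6 sequences printed here, 5′ to 3′ in lower case with E2F words in capitals on either strand, are those of the member with the largest fold change (Rfc3), of 2 further members with a word that rose (Pola1, Orc1), of a member that rose without a word (Dut), of a member with a word that did not pass the test (Hells) and of Pcna. Rfc3 lies at chr5:151651159-151651458 (minus strand), Pola1 at chrX:93632106-93632405 (minus), Orc1 at chr4:108579204-108579503 (plus), Dut at chr2:125247265-125247564 (plus), Hells at chr19:38930740-38931039 (plus) and Pcna at chr2:132253131-132253430 (minus).
Rfc3: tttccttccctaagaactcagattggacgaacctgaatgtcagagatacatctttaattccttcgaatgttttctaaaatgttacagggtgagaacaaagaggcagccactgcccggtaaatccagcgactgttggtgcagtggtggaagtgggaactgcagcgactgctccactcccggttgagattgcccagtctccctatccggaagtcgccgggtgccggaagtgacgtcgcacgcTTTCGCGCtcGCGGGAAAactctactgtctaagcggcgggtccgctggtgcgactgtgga
Pola1: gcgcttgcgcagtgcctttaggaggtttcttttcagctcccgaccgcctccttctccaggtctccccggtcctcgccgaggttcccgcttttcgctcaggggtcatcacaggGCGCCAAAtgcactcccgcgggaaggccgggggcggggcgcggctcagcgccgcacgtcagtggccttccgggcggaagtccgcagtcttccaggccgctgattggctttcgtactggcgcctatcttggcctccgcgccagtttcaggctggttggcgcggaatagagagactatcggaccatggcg
Orc1: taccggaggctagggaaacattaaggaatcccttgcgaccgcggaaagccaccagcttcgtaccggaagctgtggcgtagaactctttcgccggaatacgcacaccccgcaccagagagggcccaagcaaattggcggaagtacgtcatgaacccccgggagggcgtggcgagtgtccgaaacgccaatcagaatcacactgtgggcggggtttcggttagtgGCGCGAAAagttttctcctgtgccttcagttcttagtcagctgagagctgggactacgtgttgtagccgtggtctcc
Dut: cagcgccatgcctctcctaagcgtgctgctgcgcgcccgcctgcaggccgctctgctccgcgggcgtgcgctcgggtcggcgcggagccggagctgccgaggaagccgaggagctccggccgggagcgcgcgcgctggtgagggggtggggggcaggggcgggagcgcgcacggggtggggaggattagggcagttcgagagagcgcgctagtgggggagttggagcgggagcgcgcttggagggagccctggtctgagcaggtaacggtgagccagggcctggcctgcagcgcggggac
Hells: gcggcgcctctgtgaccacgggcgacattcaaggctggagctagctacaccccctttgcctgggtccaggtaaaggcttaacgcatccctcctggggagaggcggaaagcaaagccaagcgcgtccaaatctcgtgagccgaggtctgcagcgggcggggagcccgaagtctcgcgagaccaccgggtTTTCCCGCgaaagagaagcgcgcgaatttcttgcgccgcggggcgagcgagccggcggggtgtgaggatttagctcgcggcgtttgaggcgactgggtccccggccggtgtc
Pcna: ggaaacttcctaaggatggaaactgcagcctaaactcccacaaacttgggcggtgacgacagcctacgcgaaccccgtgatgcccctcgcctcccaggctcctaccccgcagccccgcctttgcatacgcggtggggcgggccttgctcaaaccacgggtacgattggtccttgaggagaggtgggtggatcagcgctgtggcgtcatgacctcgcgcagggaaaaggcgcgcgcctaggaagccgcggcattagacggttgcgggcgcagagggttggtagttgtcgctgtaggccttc
Counted from 0 at the annotated start, the words of Rfc3 began at -10 and at 0, that of Orc1 at -27, that of Hells at -62 and that of Pola1 at -138. The Dut and Pcna windows held none of the 4 words, which says only that these letters are not there.

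The comparison asked whether replication genes differ between fibroblasts with and without an intact LXCXE cleft of pRb. Of the 38 members, 27 rose in Rb1L/L cultures and none fell, where 7.1% of all 15462 tested genes rose and 5.08% fell (limma, adjusted p under 0.05 over all tested genes). The median log2 fold change of the members was 0.38, a 1.3-fold higher level, against -0.02 over all tested genes, and the fitted value was above 0 for all 38, from 0.01 for Pcna (-0.01 after median centring) to 0.69 for Rfc3. The changes were small: none of the 38 reached a doubling. In these bulk samples, more cells in S phase and more RNA per cell cannot be told apart. The part of the proliferation markers given above in these differences was not tested.

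**Figure D1:**
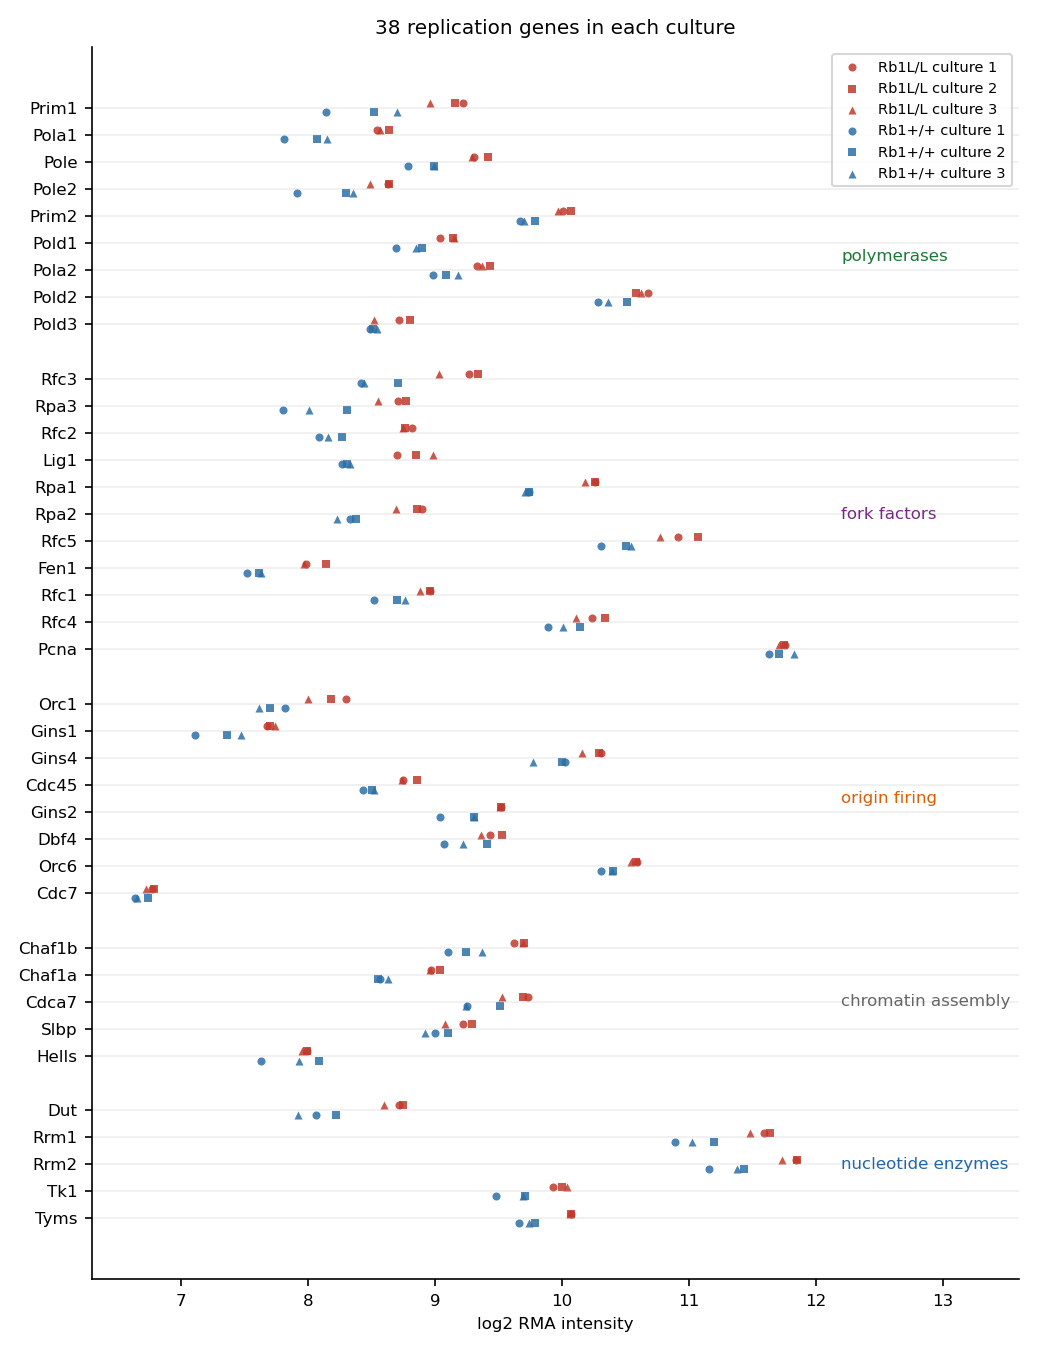
Level of each member in each culture, as log2 RMA intensity on the x axis, with genes grouped by class and sorted by fold change on the y axis. Red marks are Rb1L/L cultures and blue marks Rb1+/+ cultures, and the marker shape gives the culture number. For 31 of the 38 genes every red mark lies right of every blue one, while those of Pcna, near 11.7, lie among each other.

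The groups did not overlap for 31 of the 38 members, all higher in Rb1L/L cultures, against 16.2% of all tested genes. Another 18.3% of all tested genes, and no member, were lower without overlap. They overlapped for Pold3, Pcna, Rfc4, Cdc7, Dbf4, Hells and Slbp. Among Rb1L/L cultures, number 3 was the lowest for 30 members and number 2 the highest for 21. Among Rb1+/+ cultures, number 1 was the lowest for 30 members and number 2 the highest for 22. The members were expressed at fair levels, with means from log2 6.72 (Cdc7) to 11.73 (Pcna), and 35 of 38 lay above the median level of the tested genes. The 19 dimmer members had a median log2 fold change of 0.44 with 15 risen, and the 19 brighter ones 0.32 with 12 risen.

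Polymerase genes rose in part, 6 of 9, with a median log2 fold change of 0.30. All 4 subunits of DNA polymerase alpha-primase were among them. Pola1, its catalytic polymerase subunit and an X-linked gene, measured log2 8.54, 8.64 and 8.57 in Rb1L/L cultures 1, 2 and 3, against 7.81, 8.07 and 8.15 in Rb1+/+ cultures. The groups were apart by more than the spread within either, and the fold change was 0.57 ± 0.09 on the log2 scale (SE, adjusted p = 0.00884). Prim2, the large primase subunit, stood at 10.01, 10.07 and 9.97 in Rb1L/L cultures and 9.67, 9.79 and 9.70 in Rb1+/+ cultures (0.30 ± 0.06, adjusted p = 0.0208). Its groups were narrow and separate, but the call was lost without Rb1L/L culture 1 or 2 or Rb1+/+ culture 1 or 3 (adjusted p = 0.0582 to 0.0765). Prim1, the catalytic primase subunit, had the largest change of the class, 0.66 ± 0.14 (adjusted p = 0.022), and the widest spread among its Rb1+/+ cultures, from 8.14 to 8.70. Without Rb1L/L culture 1 or 2 it missed the threshold (adjusted p = 0.0753 and 0.0722). Pola2, the B subunit, rose by 0.29 ± 0.07 (adjusted p = 0.0304), a call kept in the fit without Rb1+/+ culture 3 alone among the 6 fits without 1 array (others 0.0618 to 0.102).

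The leading- and lagging-strand polymerases gave smaller counts. Pole, the catalytic subunit of polymerase epsilon, read 9.31, 9.42 and 9.29 in Rb1L/L cultures and 8.79, 8.99 and 8.99 in Rb1+/+ cultures. Every Rb1L/L value was the higher, by 0.41 ± 0.08 on average (SE, adjusted p = 0.0145; 0.0543 without Rb1L/L culture 2). Its second subunit Pole2 had 0.40 ± 0.12 and missed the threshold (adjusted p = 0.0592). Without Rb1+/+ culture 1 Pole2 had 0.26 and Pole 0.35. The small histone-fold subunits Pole3 (0.12) and Pole4 (0.13), which are no members, did not pass. Pold1, the catalytic subunit of polymerase delta, rose by 0.30 ± 0.07 (adjusted p = 0.0347), which it kept without Rb1+/+ culture 2 alone (others 0.0675 to 0.108). Pold2 had 0.24 ± 0.07 (adjusted p = 0.0624) and the accessory Pold4, not a member, -0.11. Pold3 measured 8.72, 8.80 and 8.52 in Rb1L/L cultures and 8.49, 8.51 and 8.54 in Rb1+/+ cultures. Rb1L/L culture 3 fell among the Rb1+/+ values, and the difference of 0.17 ± 0.08 did not pass (adjusted p = 0.202) and was 0.11 without Rb1L/L culture 2.

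**Figure D2:**
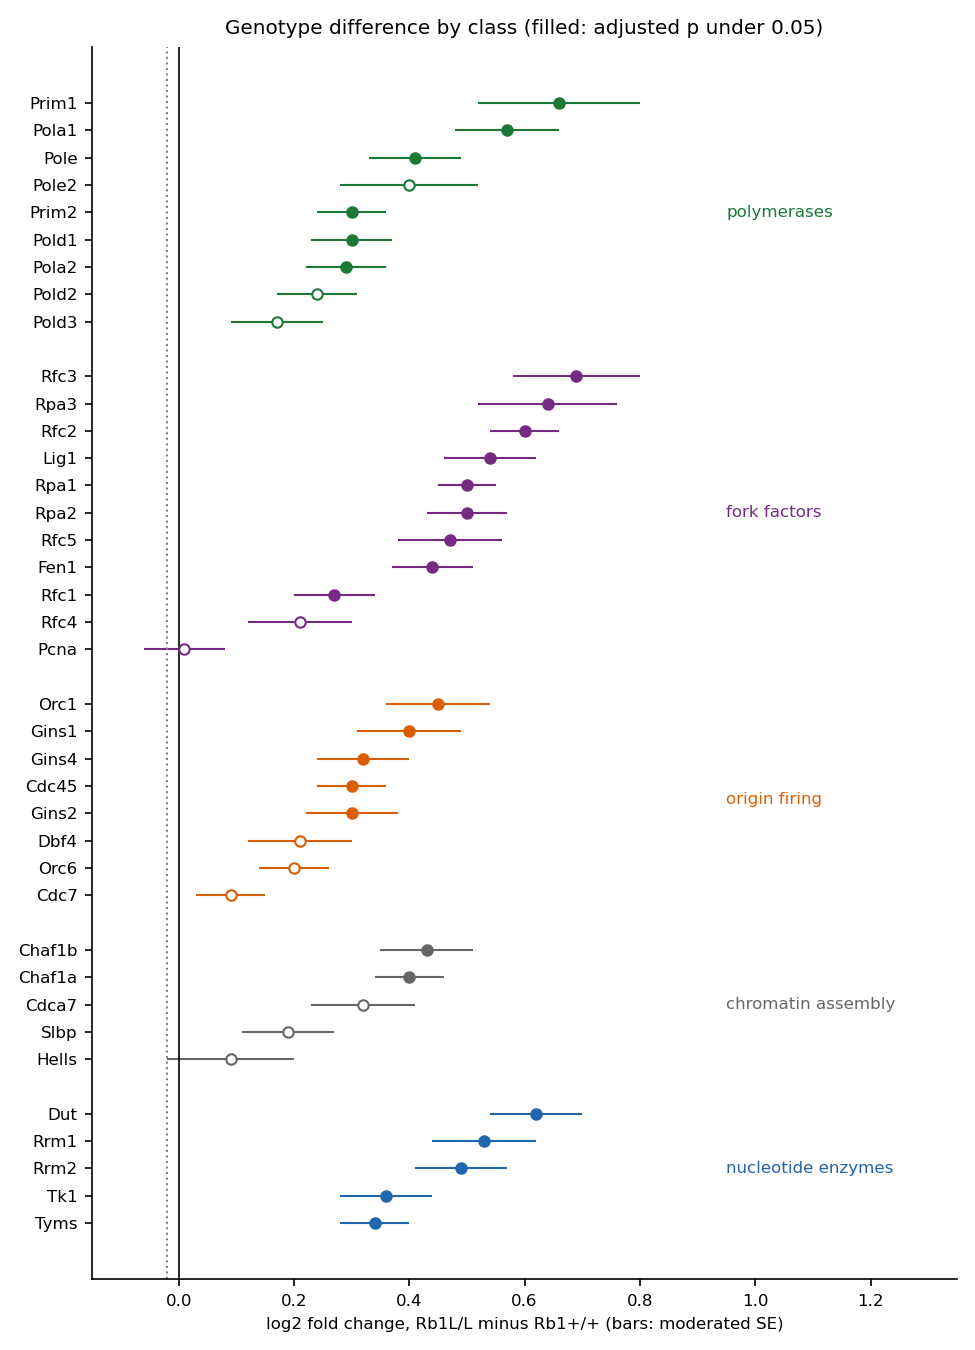
Log2 fold change of each member on the x axis (Rb1L/L minus Rb1+/+, bars showing the moderated standard error), with genes by class on the y axis. Filled points passed the adjusted threshold, and the dotted line marks the median of all tested genes at -0.02. All 5 nucleotide enzymes and 9 of 11 fork factors are filled, and Pcna sits at 0.01.

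Fork factors had 9 of 11 genes risen and a median log2 fold change of 0.50. Rfc2, a small subunit of the clamp loader, measured 8.82, 8.76 and 8.75 in Rb1L/L cultures and 8.09, 8.27 and 8.16 in Rb1+/+ cultures. The gap between the groups was wider than the range within either (0.60 ± 0.06 SE, adjusted p = 0.00295). Rfc3 (0.69 ± 0.11) and Rfc5 (0.47 ± 0.09) rose too, Rfc5 missing the threshold without Rb1L/L culture 1 or 2 or Rb1+/+ culture 1 (adjusted p = 0.0588 to 0.0617), whereas Rfc4 had 0.21 ± 0.09 (adjusted p = 0.143) and overlapped between genotypes. Rfc1, the large subunit, rose by 0.27 ± 0.07 (adjusted p = 0.0473), a call not kept with the replicate block (adjusted p = 0.0544) or in any fit without 1 array (0.0542 to 0.139).

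All 3 genes of RPA rose. Rpa1, the main strand-binding subunit, read 10.26, 10.26 and 10.18 in Rb1L/L cultures against 9.74, 9.74 and 9.71 in Rb1+/+ cultures. Rb1+/+ values were nearly identical, and the fold change was 0.50 ± 0.05 (SE, adjusted p = 0.00295). Rpa2 rose by 0.50 ± 0.07 (adjusted p = 0.00733) and Rpa3 by 0.64 ± 0.12 (adjusted p = 0.0183). The Rpa3 call was lost without Rb1L/L culture 1 or 2 or Rb1+/+ culture 3 (adjusted p = 0.0545 to 0.0631). A second, dimmer Rpa3 cluster, whose number fell among those of chromosome 1, differed by 0.40.

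The lagging-strand enzymes rose with them. Lig1, which seals the nicks, stood at 8.70, 8.85 and 8.98 in Rb1L/L cultures and 8.27, 8.31 and 8.33 in Rb1+/+ cultures (0.54 ± 0.08 SE, adjusted p = 0.00654). It was 1 of only 4 members whose highest Rb1L/L value was that of culture 3. Fen1, the flap nuclease, rose by 0.44 ± 0.07 (adjusted p = 0.00842).

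Pcna, the clamp gene, had the smallest difference of the 38 and, like Rfc4, did not pass. It measured 11.76, 11.75 and 11.71 in Rb1L/L cultures and 11.63, 11.71 and 11.83 in Rb1+/+ cultures. The highest and the lowest of the 6 values were both from Rb1+/+ cultures, and the difference was 0.01 ± 0.07 (SE, adjusted p = 0.913), or -0.01 after median centring. It was also the brightest of the 38. Its brightest cluster had a number that fell among clusters of chromosome 19 (19 of the 20 nearest named ones), although Pcna lies on chromosome 2, so that the locus this cluster reads is uncertain. The other Pcna cluster, whose number fell among those of chromosome 2, read 11.75, 11.75 and 11.66 in Rb1L/L cultures and 11.63, 11.71 and 11.82 in Rb1+/+ cultures, with a difference of 0.00 ± 0.07 (adjusted p = 0.987). In both clusters the groups overlapped.

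Among origin firing genes 5 of 8 rose, with a median log2 fold change of 0.30. Orc1, the origin-binding subunit whose level is tied to the cell cycle, measured 8.3, 8.18 and 8 in Rb1L/L cultures and 7.82, 7.70 and 7.61 in Rb1+/+ cultures. The groups did not overlap, and the change was 0.45 ± 0.09 (SE, adjusted p = 0.0199, or 0.0597 to 0.0659 without Rb1L/L culture 1 or 2 or Rb1+/+ culture 3). Cdc45, which couples GINS to the helicase, stood at 8.75, 8.86 and 8.74 in Rb1L/L cultures and 8.43, 8.50 and 8.52 in Rb1+/+ cultures (0.30 ± 0.06, adjusted p = 0.0198). Its call was lost without Rb1L/L culture 1 or 2 or Rb1+/+ culture 1 (adjusted p = 0.058 to 0.0722).

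Of the 4 GINS genes 3 rose. Gins1, which with its partners joins CDC45 on the helicase, read 7.68, 7.70 and 7.74 in Rb1L/L cultures against 7.11, 7.36 and 7.47 in Rb1+/+ cultures (0.40 ± 0.09 SE, adjusted p = 0.0295), the Rb1+/+ cultures being the more scattered. This call was lost without Rb1+/+ culture 2 or any single Rb1L/L culture (adjusted p = 0.0517 to 0.0817). Gins2 (0.30 ± 0.08, adjusted p = 0.0461) and Gins4 (0.32 ± 0.08, adjusted p = 0.039) rose, although neither passed in any of the 6 fits without 1 array (adjusted p = 0.0521 to 0.125) or after median centring. The fourth subunit, Gins3, which is no member, had 0.20 (adjusted p = 0.0631).

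The firing kinase did not pass. Cdc7, its catalytic subunit, was the dimmest member, at 6.77, 6.79 and 6.72 in Rb1L/L cultures and 6.64, 6.74 and 6.65 in Rb1+/+ cultures. The groups overlapped, and the difference was 0.09 ± 0.06 (SE, adjusted p = 0.37). Its activator Dbf4 had 0.21 ± 0.09 (adjusted p = 0.183; 0.12 without Rb1+/+ culture 1) and Orc6 0.20 ± 0.06 (adjusted p = 0.0526). All 8 origin firing genes were higher in each Rb1L/L culture than in the Rb1+/+ culture of its number, against 23% of all tested genes.

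**Figure D3:**
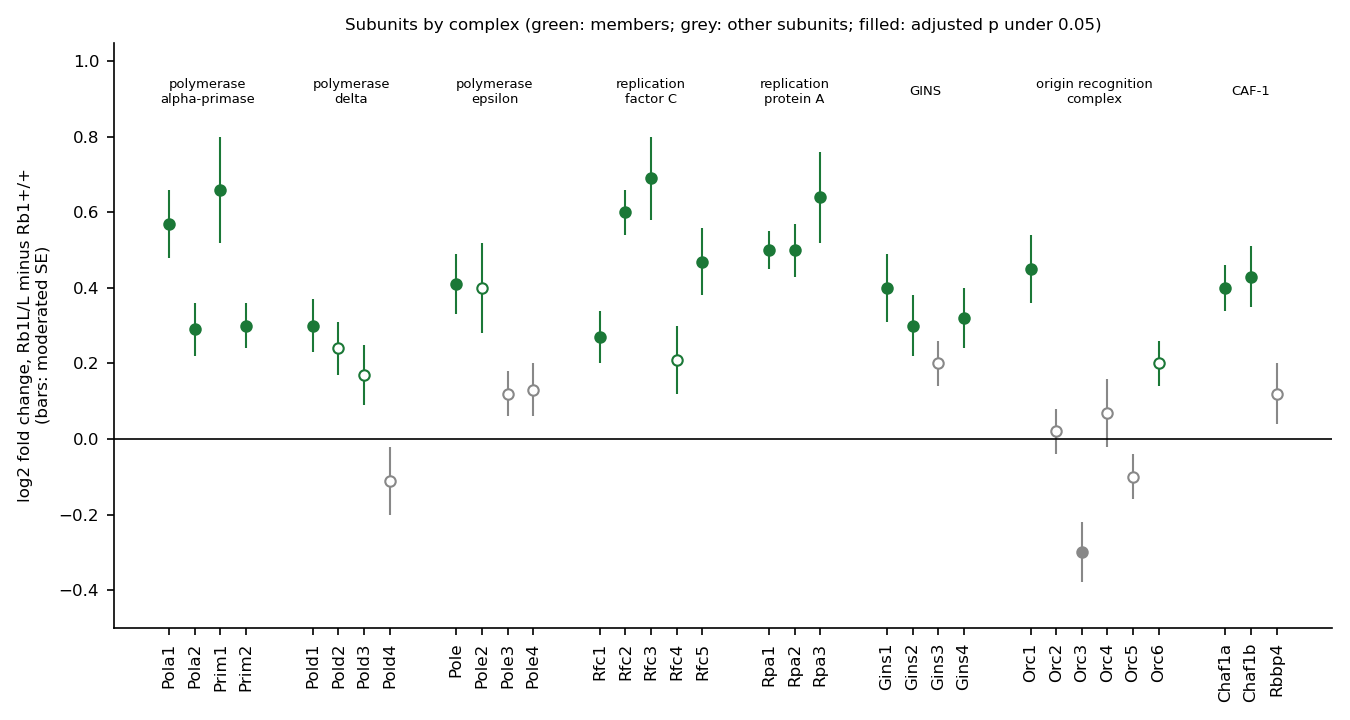
Log2 fold change (y axis, Rb1L/L minus Rb1+/+, bars showing the moderated standard error) of every subunit of 8 replication complexes (x axis). Green points are members and grey points other subunits, and filled points passed the adjusted threshold. All 4 alpha-primase and all 3 RPA subunits are filled, against 1 of 4 in polymerase delta and 1 of 4 in polymerase epsilon.

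Set out by complex, with the subunits that are no members added, all 4 subunits of polymerase alpha-primase, all 3 of RPA, 4 of 5 of RFC and 3 of 4 of GINS had risen. Polymerases delta and epsilon each had 1 of 4. In the origin recognition complex, Orc1 rose and Orc3 fell by 0.30 (adjusted p = 0.0418), while Orc2, Orc4, Orc5 and Orc6 did not pass. Both dedicated CAF-1 genes rose and the shared histone-binding subunit Rbbp4 had 0.12 (adjusted p = 0.384). Whether these complexes differ from each other was not tested.

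Of the 5 chromatin assembly genes, 2 rose, and the median log2 fold change was 0.32. These were the CAF-1 genes. Chaf1a, the large subunit that contacts PCNA, measured 8.97, 9.04 and 8.96 in Rb1L/L cultures and 8.57, 8.55 and 8.63 in Rb1+/+ cultures (0.40 ± 0.06 SE, adjusted p = 0.00593). Chaf1b stood at 9.62, 9.70 and 9.69 in Rb1L/L cultures and 9.10, 9.24 and 9.37 in Rb1+/+ cultures (0.43 ± 0.08, adjusted p = 0.0127). In both, the groups were well apart.

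Cdca7, a zinc finger protein that recruits the remodeller HELLS to chromatin, read 9.73, 9.69 and 9.53 in Rb1L/L cultures and 9.25, 9.51 and 9.24 in Rb1+/+ cultures. Its groups touched without overlapping (0.32 ± 0.09 SE, adjusted p = 0.0558), and it passed with the replicate block (adjusted p = 0.0329). Hells itself stood at 7.99, 7.99 and 7.95 in Rb1L/L cultures and 7.63, 8.09 and 7.93 in Rb1+/+ cultures. Rb1+/+ cultures spanned the Rb1L/L values on both sides, and the difference of 0.09 ± 0.11 did not pass (adjusted p = 0.614) and was -0.03 without Rb1+/+ culture 1. Slbp, which binds the stem loop of histone mRNAs, had 0.19 ± 0.08 (adjusted p = 0.134), and its second cluster, numbered mostly among those of chromosome 14, differed by 0.39.

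All 5 nucleotide enzymes rose, with a median log2 fold change of 0.49. Dut, the dUTPase that keeps uracil out of DNA, measured 8.72, 8.75 and 8.60 in Rb1L/L cultures and 8.06, 8.22 and 7.92 in Rb1+/+ cultures. The lowest Rb1L/L value was well above the highest Rb1+/+ value (0.62 ± 0.08 SE, a 1.54-fold higher level, adjusted p = 0.00544). Both subunits of ribonucleotide reductase rose. Rrm1, the large subunit, stood at 11.59, 11.64 and 11.48 in Rb1L/L cultures and 10.89, 11.20 and 11.02 in Rb1+/+ cultures (0.53 ± 0.09, adjusted p = 0.0105). Rrm2, the radical-bearing subunit that limits the enzyme in S phase, read 11.84, 11.85 and 11.73 in Rb1L/L cultures and 11.16, 11.43 and 11.38 in Rb1+/+ cultures (0.49 ± 0.08, adjusted p = 0.0108). Neither gene's groups overlapped.

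Tk1, cytosolic thymidine kinase, measured 9.93, 10.00 and 10.04 in Rb1L/L cultures and 9.48, 9.71 and 9.69 in Rb1+/+ cultures (0.36 ± 0.08 SE, adjusted p = 0.0224). Its brightest cluster, too, had a number that fell away from its own chromosome, 11, among clusters mostly of chromosome 8 (14 of 20). The cluster placed on chromosome 11 read 9.59, 9.66 and 9.71 in Rb1L/L cultures and 9.10, 9.32 and 9.17 in Rb1+/+ cultures, with the larger change of 0.46 ± 0.07 (adjusted p = 0.00933). With the brightest cluster, the call was lost without any single Rb1L/L culture or without Rb1+/+ culture 1 (adjusted p = 0.0518 to 0.0735). Tyms, thymidylate synthase, rose by 0.34 ± 0.06 (adjusted p = 0.0112), its 3 Rb1L/L values lying between 10.06 and 10.07.

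**Figure D4:**
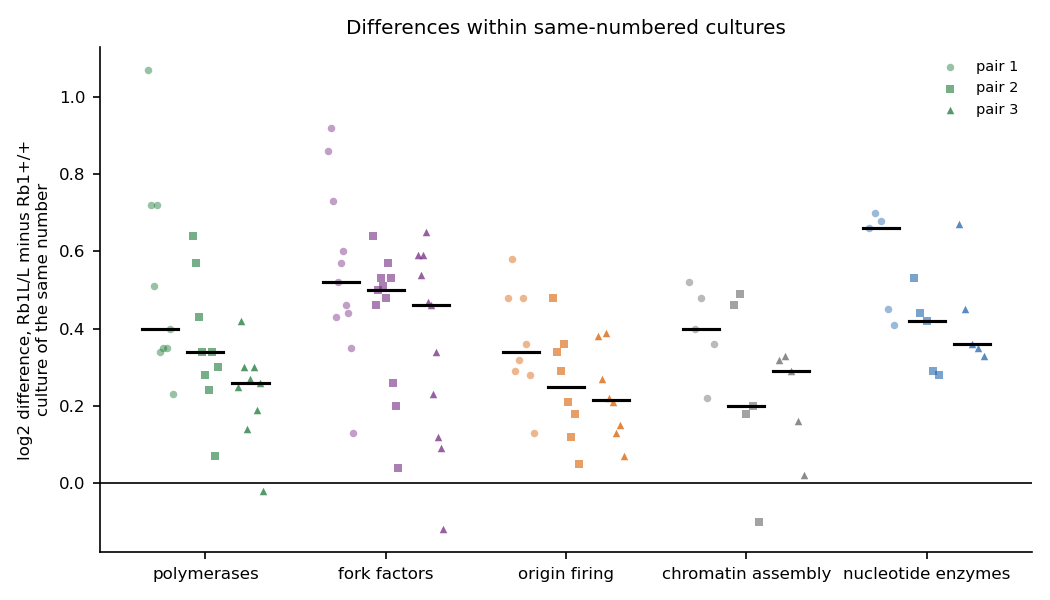
Log2 difference between the Rb1L/L and the Rb1+/+ culture of the same number (y axis) for each member, by class (x axis). Within a class the pairs 1, 2 and 3 run left to right, each point is a gene and black bars are class medians. Pair 1 has the highest median in all 5 classes, and 3 points lie below 0.

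Same-numbered cultures were also set against each other, since the design text speaks of MEF pairs. In pair 1 all 38 members were higher in the Rb1L/L culture, in pair 2 it was 37 and in pair 3 it was 36. The exceptions were Hells in pair 2 (-0.10) and Pold3 (-0.02) and Pcna (-0.12) in pair 3. All 3 pairs agreed in direction for 35 members, against 23% of all tested genes higher in every pair and 29.3% lower in every pair. The median difference of the members was 0.46 in pair 1, the pair of male type, 0.34 in pair 2 and 0.29 in pair 3, and pair 1 gave the largest of the 3 differences for 31 members. The proliferation markers had pair medians of 0.49, 0.29 and 0.23, in the same order, and their part in this order was not tested. With the culture number as a block, 27 members rose and none fell, against 7.99% and 6.45% of all tested genes. The 27 then held Cdca7 in place of Rfc1.

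Fewer arrays gave fewer calls. The count of risen members fell to 14 without Rb1L/L culture 1, 13 without Rb1L/L culture 2, 20 without Rb1L/L culture 3, and 18, 24 and 20 without Rb1+/+ cultures 1, 2 and 3. The share of all tested genes that rose fell too, to 2.74%, 2.82% and 4.71% without Rb1L/L cultures 1, 2 and 3 and to 3.5%, 5.5% and 4.06% without Rb1+/+ cultures 1, 2 and 3. Over these fits, 13 of the 27 passed every time, among them Rfc2, Rpa1, Dut, Pola1, Lig1, Chaf1a, Rrm1 and Rrm2. Without both cultures numbered 1 no member passed (smallest adjusted p = 0.0538), and the median log2 fold change was 0.31. At an unadjusted limma p under 0.05, 27 members were higher, against 3021 of all 15462 tested genes in either direction. In that fit 0.563% of all genes rose by the adjusted limma test. Without both numbered 2, 8 members and 2.07% of all genes rose, and without both numbered 3, 13 members and 2.26% of all genes.

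Partner subunits were compared as a ratio within each culture, which tells whether their array signals changed unequally. For Pola1 over Pola2 the log2 ratio was -0.80, -0.79 and -0.80 in Rb1L/L cultures and -1.17, -1.02 and -1.03 in Rb1+/+ cultures. The ratio was thus higher in all 3 Rb1L/L cultures, by 0.28, and the exact two-sided permutation test gave p = 0.1, the smallest that 3 against 3 cultures allow. Over 8 such ratios the Benjamini-Hochberg adjusted value was 0.4. The Prim1 to Prim2 ratio changed by 0.36 (exact p = 0.2; 0.17 without both cultures numbered 1 and 0.55 without both numbered 3) and the Orc1 to Orc6 ratio by 0.25 (exact p = 0.2). The Hells to Cdca7 ratio changed by -0.22 (exact p = 0.2) and the Dbf4 to Cdc7 ratio by 0.12 (exact p = 0.3). The smallest shifts were those of Rrm2 to Rrm1 (-0.05), Chaf1a to Chaf1b (-0.03) and Pole to Pole2 (0.01), with exact p of 0.4, 0.9 and 0.9.

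**Figure D5:**
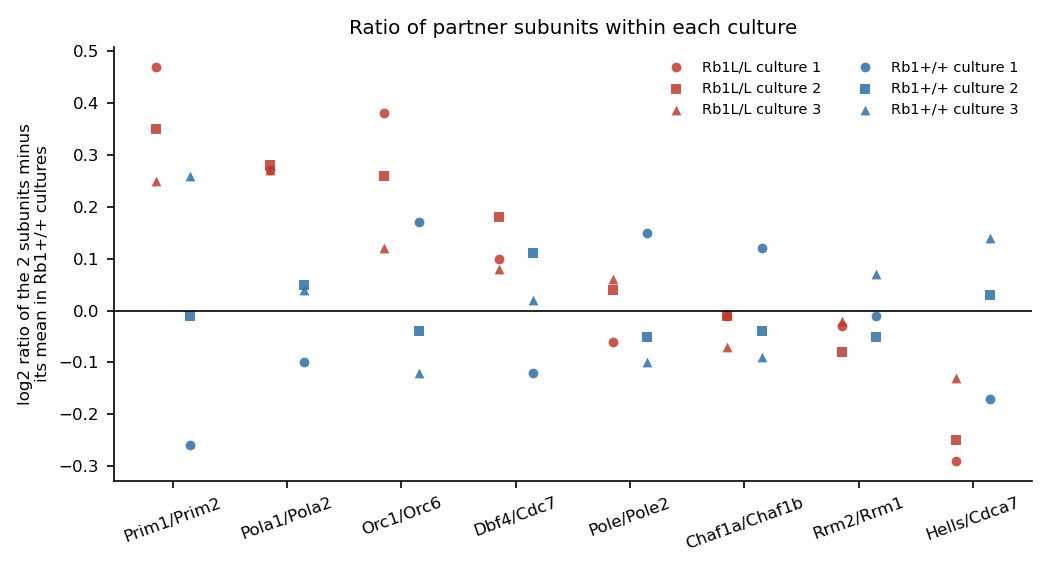
Log2 ratio of 2 partner subunits in each culture (y axis), minus the mean of that ratio in Rb1+/+ cultures, for 8 pairs of partners (x axis). Red marks are Rb1L/L and blue marks Rb1+/+ cultures. Only for Pola1/Pola2 do all red marks lie on one side of all blue ones, with a change of 0.28.

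Members with and without an E2F word in the window had fold changes of overlapping range. Of the 9 members with a word, 5 rose, with a median log2 fold change of 0.40 (0.09 for Hells to 0.69 for Rfc3). Of the 23 with a promoter but no word, 16 rose, with a median of 0.36 (0.01 for Pcna to 0.66 for Prim1). No test was run on this.

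Other genes of the same or related processes were taken from 4 lists. In all, 32 of 75 tested genes rose and 1 fell, with a median log2 fold change of 0.18. Over all tested genes 7.1% rose and 5.08% fell. Of 20 licensing and helicase genes, 9 rose and Orc3 fell. Mcm6 (0.83 ± 0.08 SE, adjusted p = 0.00273), Mcm7 (0.64 ± 0.06, adjusted p = 0.00273) and Mcm3 (0.53 ± 0.08, adjusted p = 0.00762), parts of the helicase ring, had the smallest p. Cdt1, the licensing factor, rose by 0.60 (adjusted p = 0.014). Of 20 fork accessory genes 5 rose. The smallest p were those of Tipin, of the fork protection complex (0.50 ± 0.08, adjusted p = 0.00842), and of Rnaseh2b and Rnaseh2a, of the ribonuclease that removes ribonucleotides from DNA. Rnaseh2b rose by 0.49 ± 0.09 (adjusted p = 0.0139, or 0.051 without Rb1L/L culture 2 and 0.0505 without Rb1+/+ culture 1). Rnaseh2a rose by 0.27 ± 0.06 (adjusted p = 0.0286) and kept its call in the fit without Rb1+/+ culture 2 alone among the 6 fits without 1 array.

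Nucleotide supply beyond the members rose in part, 8 of 20 genes. Dtymk, thymidylate kinase, the step after Tyms and Tk1, rose by 0.56 ± 0.07 (SE, adjusted p = 0.00477), the nucleoside diphosphate kinase gene Nme1 by 0.61 ± 0.09 (adjusted p = 0.00652) and Shmt1, which supplies one-carbon units, by 0.55 ± 0.08 (adjusted p = 0.00673). Rrm2b, the p53-induced alternative to Rrm2, had -0.10 ± 0.08 (adjusted p = 0.422), chosen after its value was seen. Of 15 further genes listed under chromatin assembly, 10 rose. The list is broad and also holds Dnmt1, Uhrf1, Lbr and Casp8ap2, which all rose. The smallest p were those of the maintenance methyltransferase gene Dnmt1 (0.55 ± 0.06, adjusted p = 0.00273), the histone chaperone gene Asf1a (0.56 ± 0.06, adjusted p = 0.00354) and Daxx, a chaperone of histone H3.3 (0.40 ± 0.06, adjusted p = 0.00787), while Nasp (0.64) and Uhrf1 (0.57) had larger fold changes. Cdt1, Nasp, Uhrf1 and the macrophage and fibroblast markers named singly were chosen after their values were seen.

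Markers of other cell types were mostly dim. All 8 macrophage and blood markers above the floor had a fold change above 0, with a median of 0.32 on the log2 scale. Of these 3 rose, where 7.1% of all tested genes rose and 5.08% fell. The median difference of these markers was uneven between the numbered pairs, at 0.14 in pair 1, 0.62 in pair 2 and 0.04 in pair 3. Adgre1, the F4/80 antigen gene, rose by 0.95 ± 0.20 (SE, adjusted p = 0.0241), more than any of the 38 members, and Cd14 and C1qa rose by 0.35 and 0.34. The summed signal, in which Lyz2 was the brightest, ran from log2 11.14 to 11.69 in Rb1L/L cultures and 10.89 to 11.60 in Rb1+/+ cultures, so that the groups overlapped. None of 5 epithelial markers passed (summed 9.40 to 9.53 in Rb1L/L cultures and 9.32 to 9.58 in Rb1+/+ cultures), nor did any of 5 skeletal muscle markers (9.08 to 9.14 in Rb1L/L cultures and 9.04 to 9.17 in Rb1+/+ cultures). Of 5 endothelial markers 1 rose (9.04 to 9.41 in Rb1L/L cultures and 8.86 to 9.53 in Rb1+/+ cultures), and of 5 neural markers 1 fell (8.97 to 9.09 in Rb1L/L cultures and 9.11 to 9.23 in Rb1+/+ cultures). Hbb-y, Pecam1, Epcam and Myh3 lay below the floor. The part of other cell types in the members' differences was not tested.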

How the data were processed

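Total RNA of 6 cultures was labelled with biotin and hybridised to Affymetrix arrays, 1 per culture. The authors deposited log2 values, and per the submitters' processing notes RMA and Partek were used. Their versions, and the genome build, were not given in the sources used here. By its design, RMA gives the probe intensities of all arrays 1 distribution before summarising them, which hides a shift common to most genes. It also understates folds near the background. Array medians of the deposited values ran from log2 6.39 to 6.45. An array has no read depth, and the number of arrays limits the precision.

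Of 35556 clusters, 21789 carried 1 gene symbol, 1621 several and 12146 none; names were updated through the reference table (GRCm38.p6; 21698 matched). The brightest cluster stood for each of 19938 genes, and 15462 were tested, those with a mean above log2 5.081 (among 1194 receptor genes for odours and pheromones, 90% lay below this level). All 38 members passed. limma 3.58.1 in R 4.3.3 compared Rb1L/L with Rb1+/+ without a block. Its p-values were adjusted by Benjamini-Hochberg over all 15462 genes, and the procedure was tested on simulated data. Replicate numbers were taken to pair the samples in the block fit and in the pair differences. The main fit and the fits with left-out arrays had no block and ignored this pairing. Deviations of same-numbered arrays correlated at 0.30, 0.24 and 0.30 (0.12, 0.20 and 0.26 over autosomal genes). Deviations of differently numbered arrays were not correlated as a reference. The design text names MEF pairs.

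Members, gene lists, ratios and promoter words were chosen with earlier results of these data known. Per class, the 3 members of smallest p and that of largest p are given by culture, and per further list the 3 genes of smallest p. Some genes of the further lists are not analysed here. Alternatives covered the block, scaling, filters, moderation, array weights, clusters and left-out arrays.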

Additional observations from a re-analysis of the deposited data

How the results depend on the processing

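The 27 members that rose became 24 after median centring (5.71% of all genes rose), 28 after quantile normalization (6.55%), 25 with no filter (4.79%), 31 with the filter at the median of all named genes (12.4%; it left out Cdc7), 30 with trended variances (7.91%) or array weights (7.52%) and 27 with the replicate block, the mean of all clusters, or, added after seeing the data, the cluster of the gene's own chromosome. No member fell in any of these fits. Origin firing genes dropped to 3 after median centring and further fork accessory genes to 3 after quantile normalization. With the replicate block, apart from Rfc1 and Cdca7, no other member's call changed.

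Leaving out 1 array or both of one number gave 0 to 24 members risen: 0 to 6 polymerases, 0 to 8 fork factors, 0 to 2 origin firing, 0 to 3 chromatin assembly and 0 to 5 nucleotide enzymes. Further genes ran from 0 to 8 (licensing), 0 to 5 (fork accessory), 0 to 8 (nucleotide supply) and 0 to 9 (chromatin), and all genes from 87 to 850 higher and 5 to 591 lower. Fewer arrays leave the test less power, but the counts also differed between fits with equal numbers of arrays. How much of the drop came from the number of arrays was not tested. The ratio change ran from -0.06 to 0.13 for Pole to Pole2, -0.07 to 0.03 for Chaf1a to Chaf1b, 0.06 to 0.17 for Dbf4 to Cdc7 and -0.07 to -0.01 for Rrm2 to Rrm1. It ran from 0.23 to 0.31 for Pola1 to Pola2 and from 0.17 to 0.55 for Prim1 to Prim2. For Orc1 to Orc6 it ran from 0.19 to 0.33 and for Hells to Cdca7 from -0.31 to -0.16. Signs turned for Pcna (-0.01 after median centring, -0.03 without Rb1+/+ culture 1, -0.04 without both numbered 1) and Hells (-0.03 and -0.04 in those last 2 fits), whose values over all left-out arrays ran from -0.04 to 0.08 and from -0.04 to 0.19; the cause was not tested. Median centring moved the median of all genes from -0.021 to -0.045.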
